A study of Mus musculus with 20 samples.

Results

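The 9 genes described here mark or build the inhibitory interneurons of the forebrain: *Pvalb*, *Calb2*, *Reln*, *Nos1*, *Erbb4*, *Lhx6*, *Sox6*, *Dlx1* and *Dlx2*. They were chosen by name, out of 35580 genes with a quantified transcript, and all transcripts of each gene were summed. The libraries came from male C57BL/6J mice aged 13.5 months and form 4 groups of 5 samples, WT hippocampus, miR-324-null hippocampus, WT neocortex and miR-324-null neocortex. The miR-324-null mice carry a CRISPR/Cas9 deletion of *Mir324* in all cells, not in interneurons alone. Founders of mixed C57BL/6 and CBA/ca background were backcrossed onto C57BL/6J, per the study's methods. Repeated crosses of heterozygotes then gave a WT line and a miR-324-null line. A difference between the lines thus goes with genotype and cannot be told apart from it. The labels call the neocortex samples cerebral cortex, and do not say whether a hippocampus and a neocortex with the same number came from 1 mouse.

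Forebrain interneurons release GABA, which Gad1 and Gad2 make and Slc32a1 loads into vesicles. Most arise in the embryonic ganglionic eminences, where Dlx1 and Dlx2 start the programme and Lhx6 and then Sox6 guide the cells of the medial eminence, and in the adult the classes are told apart by what they contain, such as the calcium buffers parvalbumin (Pvalb) and calretinin (Calb2), the secreted protein reelin or neuronal nitric oxide synthase (Nos1). Erbb4 is a neuregulin receptor of interneurons. Several of these genes are not confined to interneurons: mossy cells and young granule cells of the dentate gyrus hold Calb2, Cajal-Retzius cells hold reelin and Calb2, pyramidal cells of the hippocampus hold Nos1, and oligodendrocyte precursors hold Sox6. In whole tissue, fewer cells of a type and less RNA per cell cannot be told apart.

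The mature strands of miR-324, which the null mice lack, are shown first with the matches to their seeds (bases 2 to 8, in capitals) among the members, because a seed match is the usual way in which a miRNA binds an mRNA. Shorter matches, and the seed of a second reported form of miR-324-3p, which differs, were not searched. Both sequences are from RefSeq, on the plus strand of GRCm38.p6 at chr11:70012060-70012082 and chr11:70012095-70012114.
mmu-miR-324-5p: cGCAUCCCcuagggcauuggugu
mmu-miR-324-3p: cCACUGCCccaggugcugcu
The letters complementary to these seeds, GGGATGC for miR-324-5p and GGCAGTG for miR-324-3p, were searched on the sense strand of the 3′UTRs of protein-coding GENCODE M21 transcripts. GGGATGC was found in 2 of the 9 members, *Erbb4* and *Lhx6*, against 9.58% of the 14371 genes with a 3′UTR among those tested in the neocortex. GGCAGTG was found in 4 members, *Pvalb*, *Erbb4*, *Nos1* and *Sox6*, against 17.3% of these genes. A longer 3′UTR has more places for a match, and these shares are not matched for length. The longest 3′UTR has 7855 bases for *Erbb4*, 6046 for *Sox6*, 5027 for *Nos1* and 552 for *Pvalb*. The 7 matches are printed with 9 bases on each side, 5′ to 3′ on the strand of the gene, with the match in capitals.
Erbb4, miR-324-5p, chr1:68039048-68039072, minus strand: agagtggaaGGGATGCtaagaaaca
Lhx6, miR-324-5p, chr2:36082856-36082880, minus strand: tgttttcagGGGATGCcatttatcc
Erbb4, miR-324-3p, chr1:68039073-68039097, minus strand: tcagtgacaGGCAGTGagaatctta
Nos1, miR-324-3p, chr5:117954554-117954578, plus strand: atttaaccaGGCAGTGgatcagcca
Nos1, miR-324-3p, chr5:117955599-117955623, plus strand: caaaggcaaGGCAGTGacctcctac
Sox6, miR-324-3p, chr7:115473781-115473805, minus strand: cttcagtgaGGCAGTGtctaccctc
Pvalb, miR-324-3p, chr15:78191394-78191418, minus strand: tctttttagGGCAGTGggggtatag
The printed stretches of the *Erbb4* pair lie directly beside each other in its 3′UTR of 7855 bases, and those of the *Nos1* pair lie apart in a 3′UTR of 5027 bases. The next base was an A, which extends a match to the strongest type, at the second *Nos1* match and at the miR-324-3p match of *Erbb4*. *Calb2*, *Reln*, *Dlx1* and *Dlx2* held neither run of letters in these windows. A match is a description of the letters and not a site shown to be used.

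The samples summed to between 12752439 and 19617765 estimated counts. Levels are given as TMM CPM, a library's counts relative to its total after scaling for composition, and per transcript length as TPM. Between 34 counts (the lowest *Dlx2* library) and 1886 counts (the highest *Nos1* library) lay behind each member's level. Some libraries stood apart in markers of neighbouring tissue, each taken as a list of genes and summed in TMM CPM. Choroid plexus markers (5 genes, led by *Ttr*) reached 4523.6 in WT hippocampus 3, 3884.1 in miR-324-null hippocampus 5 and 806.5 in miR-324-null neocortex 2, against at most 139.3 in the 17 other libraries. WT hippocampus 5 had *Tcf7l2*, a gene of thalamic neurons, at 44.2 against 3.88 to 9.13 in the 9 other hippocampus libraries. The sum of the thalamic list (6 genes, among them *Tcf7l2*) was 167.4 there and 59.6 to 120.9 in those 9 libraries. It was 108.6 to 146.5 in the neocortex. Between WT tissues 2 genes of the list, *Tcf7l2* among them, were higher in the hippocampus and 2 were lower. Striatal projection neuron markers (8 genes) lay between 334.6 and 904.3 in miR-324-null neocortex and between 214.6 and 564.9 in WT neocortex. Hippocampal field markers (7 genes) lay between 586.4 and 793.9 in the hippocampus, between 134.9 and 170.6 in WT neocortex, and at 289.2, 258.9, 239.8, 262.1 and 134.6 in miR-324-null neocortex 1 to 5. Neocortical layer markers (6 genes) lay between 136.3 and 191.3 in the hippocampus and between 351.4 and 419.7 in WT neocortex, and were 284.5, 277.4, 302.2, 315.0 and 388.0 in miR-324-null neocortex 1 to 5. The tissue labels thus held, while miR-324-null neocortex 1 to 4 had more of the hippocampal field markers and less of the layer markers than any WT neocortex. Results are also given without 6 libraries that stand apart: WT hippocampus 3 and 5, miR-324-null hippocampus 5, miR-324-null neocortex 2, and WT neocortex 2 and miR-324-null neocortex 3, which had the most striatal markers of their groups. The libraries left still include miR-324-null neocortex 1 and 4, with hippocampal field sums of 289.2 and 262.1 and striatal sums of 516.9 and 649.4. Values without the 6 libraries are thus not free of markers of neighbouring tissue. All genes of the striatal, choroid plexus and hippocampal field lists had over 3 counts in at least 1 library of every group.

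No member was called differentially expressed between genotypes in either tissue. In the hippocampus 0 of 9 passed an adjusted p of 0.05 in edgeR's quasi-likelihood test, beside 0.115% of the 14796 genes tested (0.0676% higher and 0.0473% lower in null mice), and DESeq2 also called 0. In the neocortex 0 of 9 passed, beside 0.315% of 14930 genes (0.161% higher and 0.154% lower), with 0 by DESeq2. At an unadjusted p of 0.05, 2 members passed in each tissue, *Dlx1* and *Sox6* in the hippocampus and *Calb2* and *Nos1* in the neocortex, beside 11.1% and 12.2% of all genes tested. The genotypes overlapped for all 9 members in both tissues, beside 2.55% (hippocampus) and 2.3% (neocortex) of all genes for which they did not. The term for a genotype difference that depends on the tissue passed for 0 of 9 members, and for 0.0195% of the 15391 genes of that fit. Here DESeq2 called 0 members too, and 1 member, *Nos1*, passed unadjusted.

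Between the tissues the members went in different directions. In WT mice 6 of 9 were called, beside 36.1% of the 14894 genes tested (18.1% higher and 18% lower in the hippocampus): *Nos1* and *Calb2* were higher in the hippocampus, and *Pvalb*, *Erbb4*, *Dlx1* and *Lhx6* were lower. In miR-324-null mice 4 of 9 were called, beside 27.4% of 15033 genes (13.8% higher and 13.6% lower): *Nos1* was again higher, and *Pvalb*, *Erbb4* and *Sox6* were lower. The groups did not overlap for 4 members in WT mice, where this held for 26.5% of all genes, and for 4 in miR-324-null mice, where it held for 21.1%. At an unadjusted p of 0.05, 7 members passed in WT mice (44.1% of genes) and 4 in null mice (38.5%). The median log2 difference of the members was -0.23 in WT and -0.30 in miR-324-null mice, beside -0.001 and 0.008 for all genes tested. The 3 largest shifts in WT mice were 2.85-fold for *Nos1*, 2.83-fold for *Calb2* and 1.74-fold for *Pvalb*, and the others were smaller than 1.5-fold.

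**Figure D1:**
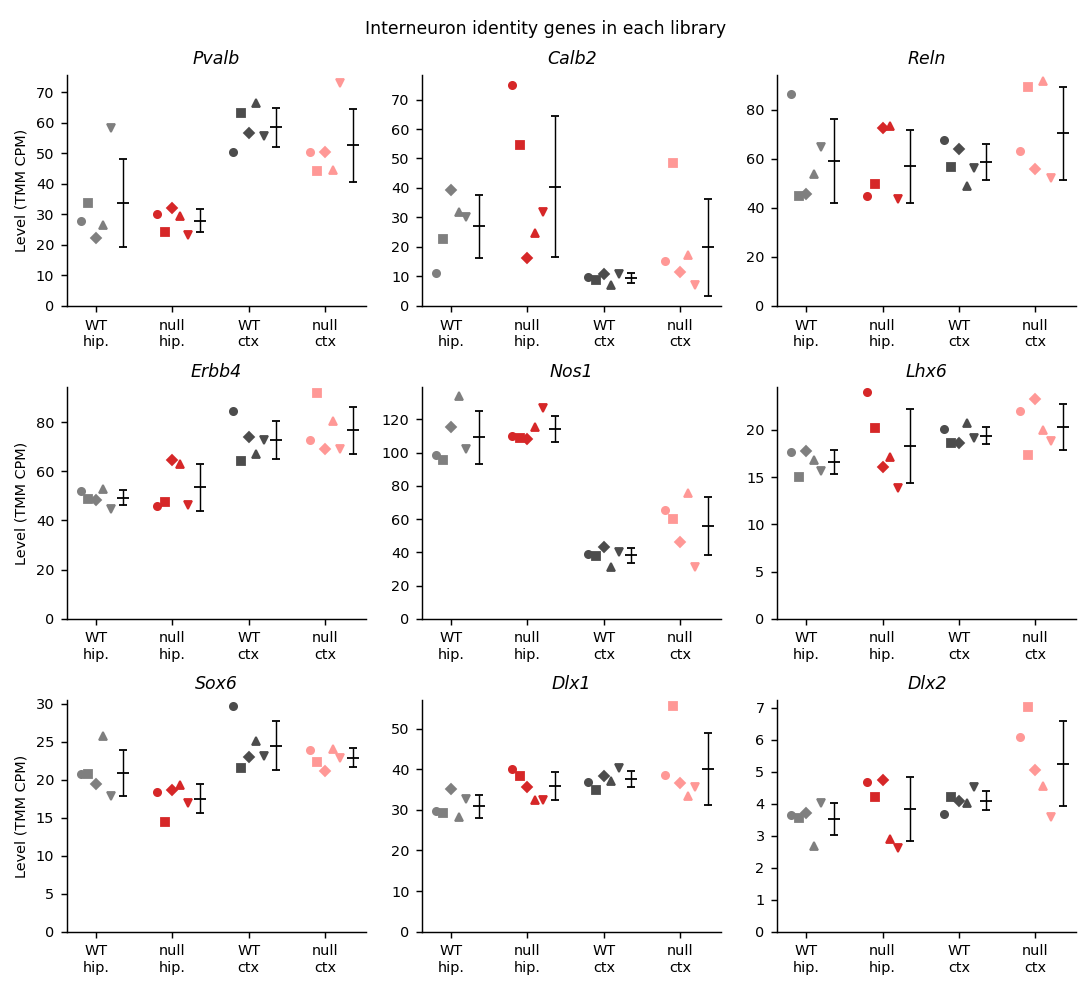
Level of each gene (TMM CPM, axes from 0) in the 20 libraries, as 5 points a group with a symbol for each replicate number (circle 1, square 2, diamond 3, upward triangle 4, downward triangle 5) and, to the right, the mean with its SD. *Nos1* lies between 95.7 and 134.1 in the hippocampus and between 30.9 and 75.6 in the neocortex, while *Reln* overlaps in all 4 groups.

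**Figure D2:**
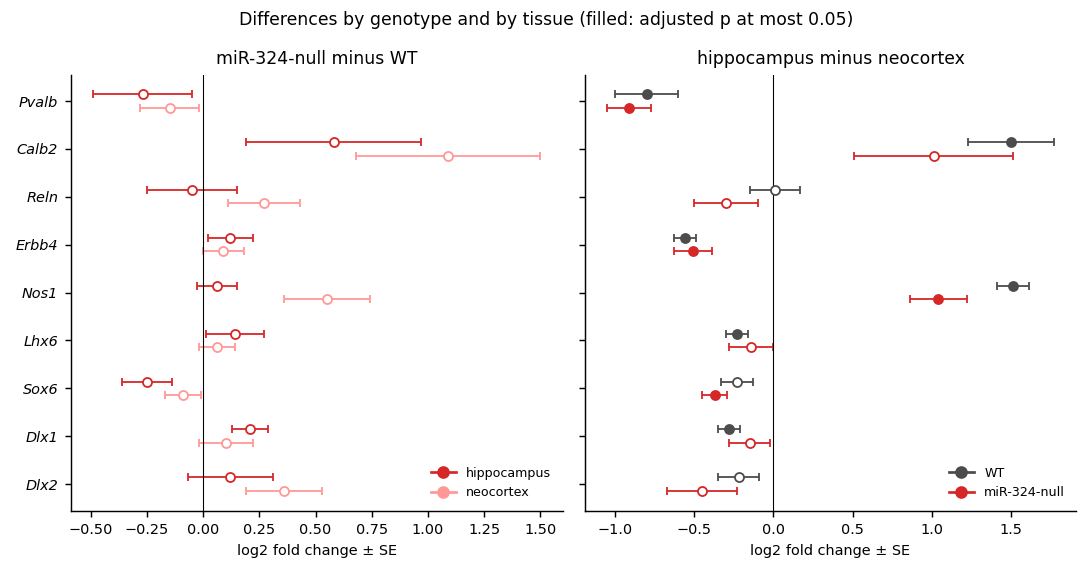
Fitted log2 fold change with its SE for each gene, miR-324-null minus WT in each tissue (left) and hippocampus minus neocortex in each genotype (right), with filled points where the adjusted p of edgeR was at most 0.05. All points are open on the left, and on the right 6 points are filled for WT and 4 for miR-324-null mice.

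Of the early transcription factors, *Dlx1* and *Dlx2* are neighbours on chromosome 2 (GRCm38, chr2:71528113-71533981 on the plus strand and chr2:71543408-71546754 on the minus strand). *Dlx1* was 29.6, 29.2, 35.1, 28.2 and 32.6 TMM CPM in WT hippocampus 1 to 5 and 40.1, 38.4, 35.5, 32.3 and 32.5 in miR-324-null hippocampus 1 to 5. It was 36.9, 35.0, 38.3, 37.0 and 40.4 in WT neocortex and 38.7, 55.6, 36.7, 33.5 and 35.6 in miR-324-null neocortex. Replicates 1 to 3 of the null hippocampus exceeded every WT hippocampus and the other two did not, and miR-324-null neocortex 2, the library with the most choroid plexus RNA of its group, stood above the rest. In WT mice *Dlx1* was lower in the hippocampus by a log2 difference of -0.28 ± 0.07 (SE, n = 5 and 5, edgeR adjusted p = 0.00478). This was not so with the transcript-length offset (-0.16, adjusted p = 0.138), with all 20 samples in one edgeR fit (-0.28, adjusted p = 0.0548) or with protein-coding transcripts alone (-0.28, adjusted p = 0.283). Between genotypes the hippocampal difference of 0.21 ± 0.08 did not pass (edgeR adjusted p = 0.379), and it was -0.17 with protein-coding transcripts alone. The neocortical difference of *Dlx1*, 0.10 ± 0.12, was -0.05 without miR-324-null neocortex 2.

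*Dlx2* was the lowest of the 9 genes per length, at 2.80 ± 0.52 TPM (SD, n = 5) in WT hippocampus, 2.91 ± 0.564 in null hippocampus, 2.91 ± 0.158 in WT neocortex and 4.11 ± 0.967 in null neocortex. In TMM CPM it was 3.67, 4.20, 4.08, 4.02 and 4.53 in WT neocortex 1 to 5 and 6.08, 7.02, 5.05, 4.56 and 3.58 in miR-324-null neocortex. Null libraries 1 to 4 lay above all WT neocortex libraries and null library 5 below them. The difference of 0.36 ± 0.17 on the log2 scale did not pass (edgeR adjusted p = 0.411). *Dlx2* did not pass between tissues either, with -0.22 ± 0.13 for WT and -0.45 ± 0.22 for null mice. The further interneuron transcription factors (12 genes fixed as a list, 11 of them tested) included 2 higher and 5 lower in the hippocampus of WT mice, with the same counts in null mice and 0 called between genotypes. *Prox1*, which granule cells of the dentate gyrus also hold, was 2.57 ± 0.12 higher in WT hippocampus (edgeR adjusted p = 6.47e-09). The list's median was -0.32 in WT mice and -0.41 in null mice.

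*Lhx6* (chr2:36081953-36105408, minus strand) and *Sox6* (chr7:115470872-116038796, minus strand) keep the medial-eminence interneurons, those that later hold parvalbumin or somatostatin, on their course. *Lhx6* lay between 15.0 and 17.8 TMM CPM in WT hippocampus, between 13.9 and 24.0 in null hippocampus, between 18.6 and 20.7 in WT neocortex and between 17.3 and 23.3 in null neocortex. The WT tissues did not overlap, with a log2 difference of -0.23 ± 0.07 (edgeR adjusted p = 0.0161), whereas the null hippocampus was spread across the whole range. That call was lost without WT neocortex 4 (-0.20, edgeR adjusted p = 0.0514), with the transcript-length offset (-0.17, adjusted p = 0.193), with all 20 samples in one fit (-0.23, adjusted p = 0.126) and without the libraries that stand apart (-0.24, adjusted p = 0.0538). Between genotypes *Lhx6* differed by 0.14 ± 0.13 in the hippocampus and by 0.06 ± 0.08 in the neocortex, so that 2 SE either side reached from -0.12 to 0.39 and from -0.10 to 0.23.

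*Sox6* was 20.8, 20.7, 19.4, 25.8 and 17.9 TMM CPM in WT hippocampus 1 to 5 and 18.4, 14.5, 18.6, 19.3 and 16.9 in null hippocampus. It was 29.7, 21.5, 23.0, 25.1 and 23.1 in WT neocortex and 23.9, 22.3, 21.2, 24.1 and 22.8 in null neocortex. The null hippocampus was the lowest group and lay wholly below the null neocortex, while it overlapped WT hippocampus. The tissue difference was -0.37 ± 0.08 in null mice (edgeR adjusted p = 0.00509). In WT mice it was -0.23 ± 0.10 (adjusted p = 0.108), and it passed without WT hippocampus 4 (-0.31, adjusted p = 0.0220). The difference between these tissue differences, -0.15 ± 0.14, did not pass (adjusted p = 0.961), so the tissue difference of *Sox6* was not shown to depend on genotype. Between genotypes in the hippocampus *Sox6* differed by -0.25 ± 0.11 (edgeR adjusted p = 0.404). Oligodendrocyte precursor markers (6 genes, among them *Pdgfra*), whose cells also hold *Sox6*, had 2 genes higher in the hippocampus in WT mice and 0 called in null mice or between genotypes, and their sum lay between 239.6 and 313.2 TMM CPM over all 20 libraries.

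Of the genes that mark mature classes, *Pvalb* (chr15:78191114-78206400, minus strand) had the highest mean TPM of the 9 in every group. It was 27.7, 33.8, 22.3, 26.6 and 58.4 TMM CPM in WT hippocampus 1 to 5 and 30.1, 24.4, 32.1, 29.4 and 23.3 in null hippocampus. In the neocortex it was 50.6, 63.2, 56.8, 66.5 and 55.7 in WT and 50.6, 44.4, 50.6, 44.5 and 73.2 in null libraries. WT hippocampus 5, the library high in *Tcf7l2*, reached the neocortical range, and the 9 other hippocampus libraries lay below every neocortex library. *Pvalb* was lower in the hippocampus by a log2 difference of -0.80 ± 0.20 in WT (edgeR adjusted p = 0.00763) and -0.91 ± 0.14 in null mice (adjusted p = 0.000415). Without the libraries that stand apart these were -0.95 (adjusted p = 7.71e-05) and -0.94 (adjusted p = 0.00435). Between genotypes the hippocampal difference of -0.27 ± 0.22 became 0.014 without WT hippocampus 5, and the neocortical one was -0.15 ± 0.13, with 2 SE either side reaching from -0.40 to 0.10. Whether that library held thalamic RNA, and the part of it in its *Pvalb* level, was not tested.

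Other genes of fast-spiking cells, the class that holds parvalbumin, went the same way between tissues. Of the 9 on that list, 8 were lower and 0 higher in the hippocampus of WT mice, and 7 were lower and 1 higher in null mice, with a median of -0.62 in both. *Kcnab3*, a potassium channel subunit, was lower by -1.54 ± 0.21 in WT and -1.53 ± 0.19 in null mice, *Scn1a*, a sodium channel, by -1.01 ± 0.09 and -0.88 ± 0.11, and *Syt2*, a synaptic calcium sensor, by -0.89 ± 0.24 and -1.43 ± 0.26. None of them was called between genotypes, where the list had a median of 0.03 (hippocampus) and -0.08 (neocortex).

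*Calb2* (chr8:110137502-110168210, minus strand) had the highest CV of the 9 genes in 3 of the 4 groups, all but WT hippocampus. It was 11.1, 22.6, 39.4, 31.7 and 30.2 TMM CPM in WT hippocampus 1 to 5 and 74.9, 54.6, 16.2, 24.8 and 31.7 in null hippocampus, with a CV of 39.7% and 59.2%. It was 9.93, 8.83, 10.7, 6.99 and 11.0 in WT neocortex (17.3%) and 15.3, 48.5, 11.5, 17.3 and 7.22 in null neocortex (82.2%). All WT hippocampus libraries exceeded all WT neocortex libraries, the lowest by little, and miR-324-null neocortex 2 lay within the hippocampal range. The WT tissue difference was 2.83-fold, with an SE of 0.27 on the log2 scale (edgeR adjusted p = 0.000609), and a log2 difference of 1.17 was left without the libraries that stand apart (adjusted p = 0.0111). In null mice it was 1.01 ± 0.50 and did not pass (adjusted p = 0.153). Without miR-324-null neocortex 2 it was 1.66 and passed (adjusted p = 0.0134). Between genotypes the neocortical difference of 1.09 ± 0.41 (edgeR adjusted p = 0.313) was 0.43 without that library, and the hippocampal one was 0.58 ± 0.39, with 2 SE either side reaching from -0.21 to 1.37. Mossy cell markers (3 genes) had 2 called higher in the hippocampus in WT mice, led by *Csf2rb2* (0.85 ± 0.19), and 1 higher and 1 lower in null mice, *Csf2rb2* (1.28 ± 0.32) and *Drd2* (-2.21 ± 0.37). Their sum lay between 12.9 and 16.8 TMM CPM in WT hippocampus, at a median of 14.1 and at most 16.6 in null hippocampus, between 8.05 and 25.5 in WT neocortex and between 10.7 and 35.3 in null neocortex. *Drd2* is also on the striatal list. The highest neocortical sums were those of WT neocortex 2 (25.5) and miR-324-null neocortex 3 (35.3), the libraries with the most striatal markers of their groups. Of the Cajal-Retzius list (5 genes, 3 tested) 2 were higher and 1 lower in WT hippocampus, *Trp73* by 2.47 ± 0.39 and *Cacna2d2* by -0.58 ± 0.11 among them, and 1 was higher and 1 lower in null mice. The sum of this list lay between 40.5 and 54.6 in WT hippocampus and between 47.7 and 55.7 in WT neocortex. Their part in the *Calb2* level was not tested.

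*Nos1* (chr5:117781032-117958840, plus strand) had the largest tissue difference. It was 98.7, 95.7, 115.5, 134.1 and 102.0 TMM CPM in WT hippocampus 1 to 5 and 110.3, 109.1, 108.0, 115.5 and 127.1 in null hippocampus. In the neocortex it was 39.0, 38.0, 43.0, 30.9 and 40.4 in WT and 65.3, 60.3, 46.5, 75.6 and 31.2 in null libraries. Hippocampus and neocortex did not overlap in either genotype. The difference was 1.51 ± 0.10 in WT (2.85-fold, edgeR adjusted p = 1.37e-07) and 1.04 ± 0.18 in null mice (2.06-fold, adjusted p = 0.000941).

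Within the neocortex, null libraries 1 to 4 were above every WT library in *Nos1* and null library 5 was among the lowest. The difference of 0.55 ± 0.19 did not pass (edgeR adjusted p = 0.268), and it passed without null library 5 (0.70, adjusted p = 0.0104). The same 4 null libraries were those with more of the hippocampal field markers and less of the neocortical layer markers. The part of these in the level of *Nos1* was not tested. With the log2 of the summed hippocampal field markers as a covariate, a fit chosen after seeing these values, the *Nos1* difference was -0.064 (edgeR adjusted p = 0.948). It was 0.41 with the summed striatal projection neuron markers in their place (adjusted p = 0.780). The hippocampal field sum was 239.8 to 289.2 in null libraries 1 to 4 and 134.9 to 170.6 in WT neocortex. That covariate thus nearly follows genotype, except in null library 5, and the fit cannot tell them apart. The interaction of genotype with tissue was -0.48 ± 0.22 for *Nos1* (edgeR adjusted p = 0.880). In the hippocampus *Nos1* differed between genotypes by 0.06 ± 0.09. The nitric oxide pathway list (10 genes: other synthases, partners of Nos1, guanylate cyclase subunits, the kinases behind them and a phosphodiesterase) had 1 gene higher and 5 lower in WT hippocampus, and 0 higher and 5 lower of the 9 tested in null mice. *Gucy1a1*, a subunit of the cyclase that nitric oxide activates, differed by -1.52 ± 0.14 in null mice (edgeR adjusted p = 1.14e-05) and was lower in WT mice too, the opposite direction to *Nos1*, and 0 of the list were called between genotypes.

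**Figure D3:**
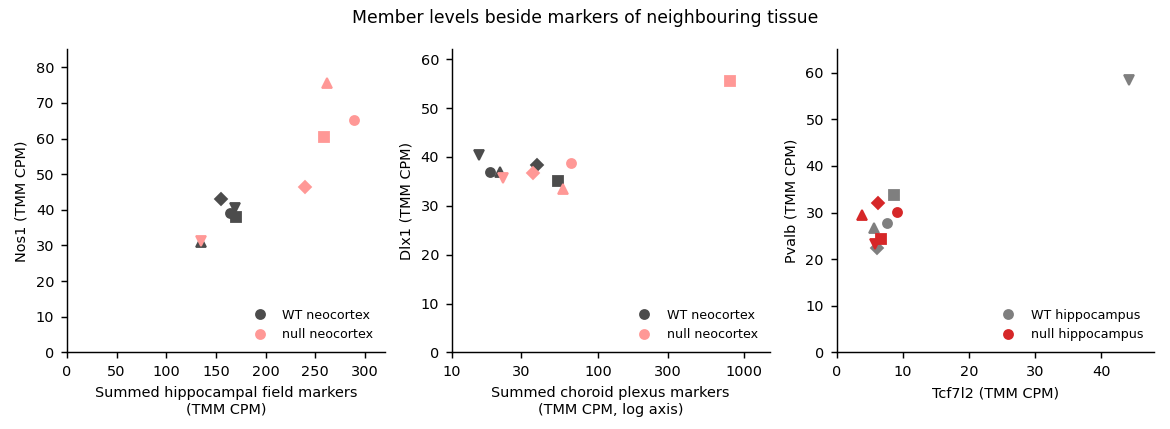
Levels of *Nos1* and *Dlx1* in the 10 neocortex libraries and of *Pvalb* in the 10 hippocampus libraries (y, TMM CPM) against the summed hippocampal field markers, the summed choroid plexus markers (log axis) and *Tcf7l2* of the same library (x, TMM CPM), with the symbols of replicate numbers as in the plot of all levels. The 4 null neocortex libraries with marker sums of 239.8 to 289.2 have the highest *Nos1*, and single libraries stand apart in *Dlx1* (55.6) and *Pvalb* (58.4).

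*Reln* (chr5:21884454-22344702, minus strand) had the smallest tissue difference of the 9 genes in WT mice, but not in null mice. It lay between 44.8 and 86.6 TMM CPM in WT hippocampus, between 43.7 and 73.6 in null hippocampus, between 49.0 and 67.7 in WT neocortex and between 52.1 and 91.9 in null neocortex, so all 4 groups overlapped. The tissue difference was 0.01 ± 0.16 in WT mice, where 5 of the 10 fits that leave out 1 library gave the other sign, and -0.30 ± 0.20 in null mice. Between genotypes *Reln* differed by -0.05 ± 0.20 in the hippocampus and 0.27 ± 0.16 in the neocortex, with 2 SE either side reaching from -0.46 to 0.35 and from -0.04 to 0.58. Of the reelin pathway (8 genes, the receptors and the kinases and adaptor behind them), 4 were higher in WT hippocampus and 0 lower, among them *Dab1*, the adaptor, by 0.32 ± 0.06 and the kinase *Src* by 0.33 ± 0.04. In null mice 3 were higher and 1 lower, and 0 were called between genotypes.

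*Erbb4* (chr1:68032186-69108059, minus strand), the receptor of the set, was 51.9, 48.8, 48.3, 52.6 and 44.8 TMM CPM in WT hippocampus 1 to 5 and 45.9, 47.4, 64.5, 62.9 and 46.4 in null hippocampus. In the neocortex it was 84.4, 64.2, 74.0, 67.2 and 72.9 in WT and 72.7, 91.7, 69.0, 80.6 and 69.1 in null libraries. Every hippocampus library lay below every neocortex library of its genotype. The difference was -0.56 ± 0.07 in WT (edgeR adjusted p = 4.25e-05) and -0.51 ± 0.12 in null mice (adjusted p = 0.00583), and without the libraries that stand apart the null value was -0.42 (adjusted p = 0.0587). *Erbb4*, which holds a match to each miR-324 strand, differed between genotypes by 0.12 ± 0.10 in the hippocampus and 0.09 ± 0.09 in the neocortex, with 2 SE either side reaching from -0.09 to 0.33 and from -0.09 to 0.27. Its ligand *Nrg1* was lower in the hippocampus by -1.42 ± 0.16 in WT (edgeR adjusted p = 1.08e-05) and by -1.61 ± 0.15 in null mice. Of the neuregulin and ErbB list (10 genes, 8 and 9 of them tested), 3 were lower in WT and 1 in null hippocampus, 0 were higher, and 0 were called between genotypes.

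The genes of GABA synthesis and transport, which all interneurons share, were themselves lower in the hippocampus. In WT mice *Gad1* differed by -0.25 ± 0.06, *Gad2* by -0.17 ± 0.05 and *Slc32a1* by -0.39 ± 0.09 (edgeR adjusted p = 0.00650, 0.0138 and 0.00280), and by -0.29 ± 0.08, -0.39 ± 0.13 and -0.61 ± 0.10 in null mice (adjusted p = 0.0236, 0.0436 and 0.000605). All 4 genes of that list were called in WT and 3 in null mice, and 0 between genotypes. Without the libraries that stand apart *Gad2* was no longer called in WT mice, nor *Gad1* and *Gad2* in null mice. The call of *Gad2* in null mice was also lost in 9 of the 10 fits that leave out 1 library. Striatal projection neurons make GABA too, and the sum of their markers lay between 147.2 and 174.7 in null hippocampus and between 334.6 and 904.3 in null neocortex, whose part in these values was not tested. Each member was therefore also taken as a log2 ratio to the geometric mean of these 3 genes and compared by an exact two-sided permutation test, whose smallest p for 5 against 5 libraries is 0.00794. Over the 36 tests 0 passed after Benjamini-Hochberg adjustment. The ratio of *Nos1* differed by 1.78 in WT and 1.52 in null mice, and that of *Calb2* by 1.68 in WT, each with no overlap (p = 0.00794, adjusted p = 0.0952, exact permutation). The ratio of *Pvalb* was lower by -0.60 in WT (exact p = 0.0397) and -0.48 in null mice (exact p = 0.0159), and that of *Erbb4* by -0.28 in WT (exact p = 0.0397), all with an adjusted p of at least 0.143. For *Lhx6*, *Sox6*, *Dlx1* and *Dlx2* the WT ratios differed by 0.04, 0.04, -0.01 and 0.04. In null mice these differed by 0.26, 0.04, 0.29 and -0.03, that of *Calb2* by 1.55 and that of *Erbb4* by -0.10. Between genotypes the ratio of *Sox6* differed by -0.36 in both tissues (exact p = 0.0397 in the hippocampus and 0.0476 in the neocortex). Their adjusted p was 0.179 and 0.19. In the neocortex *Sox6* itself differed by -0.09 ± 0.08, and *Gad1*, *Gad2* and *Slc32a1* by 0.21 ± 0.08, 0.39 ± 0.13 and 0.26 ± 0.07. In the hippocampus *Sox6* differed by -0.25 ± 0.11, and these 3 genes by 0.16 ± 0.07, 0.15 ± 0.06 and 0.03 ± 0.11. The ratio thus also holds the differences of the genes it is taken to. The other members had an exact p of at least 0.0714 between genotypes.

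Among the other interneuron subtype markers (17 genes) 5 were higher and 5 lower in the hippocampus of WT mice, 4 and 6 in null mice, and 0 were called between genotypes. *Lamp5* was the furthest apart, lower in the hippocampus by -2.56 ± 0.11 in WT and -2.31 ± 0.19 in null mice, although pyramidal cells of the neocortex hold it too. The peptide genes *Crh* (-1.65 ± 0.24) and *Vip* (-1.26 ± 0.13) were lower in WT hippocampus, and *Kit* was 1.41 ± 0.11 higher in null hippocampus. The median of the list was -0.01 in WT and 0.21 in null mice.

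Per transcript length, the order of mean level in WT neocortex was *Pvalb* (121.5 ± 12.7 TPM, SD, n = 5), *Reln* (33.2 ± 2.20), *Dlx1* (31.6 ± 1.37), *Calb2* (12.5 ± 2.21), *Lhx6* (10.5 ± 0.720), *Erbb4* (10.3 ± 1.45), *Nos1* (6.25 ± 0.815), *Sox6* (5.97 ± 1.54) and *Dlx2*. Its neighbours *Reln* and *Dlx1*, *Calb2* and *Lhx6*, *Lhx6* and *Erbb4*, and *Nos1* and *Sox6* had overlapping libraries. In WT hippocampus *Pvalb* (69.2 ± 29.2 TPM), *Reln* (37.0 ± 13.9), *Calb2* (35.2 ± 14.5) and *Dlx1* (27.9 ± 3.17) overlapped in turn, and *Nos1* (17.8 ± 3.39) stood clear between *Dlx1* and *Lhx6* (9.10 ± 1.18). *Nos1* thus ranked 5 of 9 in hippocampus and 7 of 9 in neocortex of both genotypes.

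The transcripts behind these levels differed in kind. Of the TPM of *Reln* in WT neocortex, 56.3% was assigned to Reln-205, a processed transcript of 891 bases without a coding frame in the annotation, and 15.4% to the retained intron Reln-203, while the protein-coding Reln-207 of 11699 bases held 17.4%. As TPM is per transcript length, a transcript as long as Reln-207 holds a larger part of the tested counts than of the TPM. Shares of the counts are not given here. Counting protein-coding transcripts alone, *Reln* was at 5.76 ± 1.36 TPM in WT neocortex and 5.26 ± 1.21 TPM in WT hippocampus. *Dlx1* was alike: the retained-intron transcripts Dlx1-203 and Dlx1-206 held 47.6% and 33.9% in WT neocortex, and protein-coding transcripts 5.86 ± 1.29 TPM. The gene *Dlx1as* is annotated across *Dlx1* on the other strand, its exons share 335 of the 3385 bases of Dlx1-203 and 0 bases of Dlx1-206, and it is not among the genes quantified here. Whether kallisto used the strand is not given in the sources used here, so reads of the overlap cannot be told apart. For *Pvalb*, *Calb2*, *Nos1*, *Erbb4* and *Lhx6*, protein-coding transcripts held at least 98.3% of the TPM in every group.

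*Erbb4* was split mainly between 2 coding transcripts that differ in the coding sequence by an exon for the part inside the cell, and outside it by 303 bases at the start of Erbb4-202 (chr1:69107757-69108059, minus strand). This exon, exon 26 of Erbb4-201, has 48 bases (chr1:68043908-68043955, minus strand) and is the one that makes the CYT-1 form, which can bind phosphoinositide 3-kinase. It is printed in capitals with 12 bases of the exons on each side, as the coding stretch that Erbb4-202 lacks.
Erbb4-201, exon 26: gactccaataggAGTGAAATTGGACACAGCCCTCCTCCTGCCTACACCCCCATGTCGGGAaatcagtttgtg
Erbb4-201 held 67.3% ± 7.56 (SD, n = 5) of the *Erbb4* TPM in WT hippocampus, 70.7% ± 26.9 in null hippocampus, 63.2% ± 11.1 in WT neocortex and 54.7% ± 13.8 in null neocortex. Single null libraries ranged from 29.6% to 100%, so the division was imprecise. *Lhx6* was likewise split between Lhx6-204 and Lhx6-202, which holds a further coding exon of 104 bases (chr2:36087368-36087471, minus strand). Lhx6-204 held 68.8% in WT and 84.6% in null hippocampus, a difference of 15.7 points (exact permutation p = 0.0159, adjusted p = 0.452). Over 19 transcripts with a mean share of at least 10% in a group and 4 comparisons, 76 tests in all, 0 passed adjustment and 8 had an unadjusted exact p of 0.05 or less. The 8 all had an adjusted p of 0.452, and a single difference at the smallest p could not pass among so many tests.

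**Figure D4:**
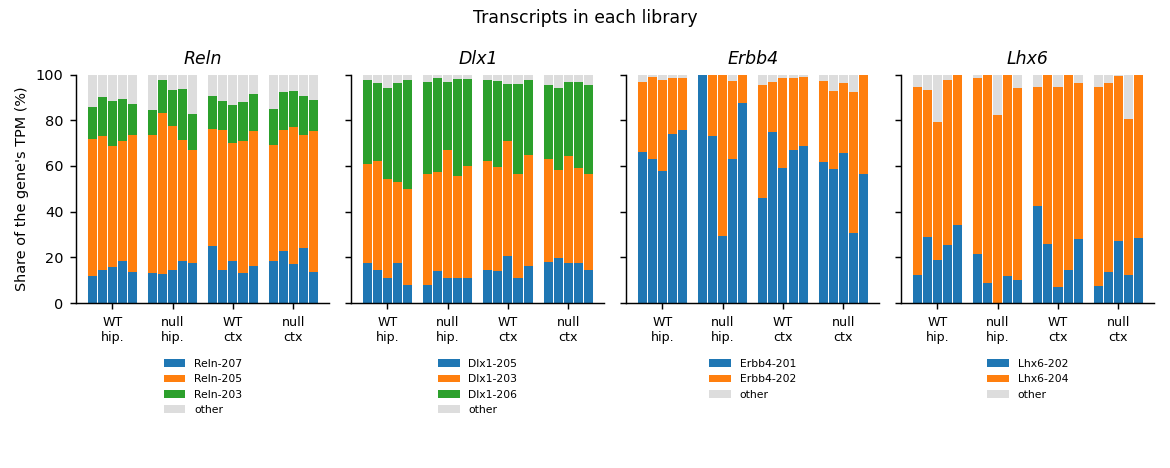
Share of each gene's TPM (y, percent, from 0 to 100) held by its main transcripts in each of the 20 libraries (x, 5 bars a group in the order of replicate number), for *Reln*, *Dlx1*, *Erbb4* and *Lhx6*, with all further transcripts in grey. Reln-205 takes the largest share of *Reln* in every library, and Erbb4-201 swings from 29.6% to 100% among null hippocampus libraries.

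Within groups some members moved together from library to library. Taking each library's deviation from its group mean in log2 CPM over the 20 libraries, which share depth and dissection with all other genes, *Reln* and *Erbb4* had a Pearson r of 0.74, *Dlx1* and *Dlx2* of 0.73 and *Erbb4* and *Sox6* of 0.56. Without the 6 libraries that stand apart these were 0.78, 0.72 and 0.57 over 14 libraries. Other pairs moved far more. *Erbb4* and *Dlx1* went from 0.14 to -0.70, *Reln* and *Dlx1* from 0.06 to -0.50, and *Lhx6* and *Dlx1* from 0.09 to 0.61. *Calb2* and *Dlx1* had 0.72, and 0.44 over the 14. *Pvalb* ran against *Nos1*, with -0.56 over 20 and -0.83 over 14. The interneuron factors *Lhx6* and *Sox6* had an r of 0.05. The genes most like a member in this measure, of 14588 genes, were *Kcnab3* and *Vamp1* (both 0.89) and *Hsf4* (0.87) for *Pvalb*, *Slc44a5* (0.91), *Nek10* (0.90) and *Pcdh19* (0.88) for *Nos1*, *Dennd4a* and *Scn2a* (both 0.89) for *Erbb4*, and *Camk2d*, *Glra3* (both 0.83) and *Atp2b4* (0.81) for *Reln*. For *Calb2* they were *Nkd2* (0.82), *Thnsl2* and *Hadh* (both 0.81), for *Lhx6* *Fibp* (0.87), *Nme4* (0.84) and *Bex2* (0.81), and for *Sox6* *Alkbh8* (0.89), *Dscam* (0.81) and *Wnk3* (0.80). For *Dlx1* they were *Lgr5* (0.84), *Pcbp3* (0.83) and *Fam167a* (0.79), and for *Dlx2* *Mid1ip1*, *Trim36* (both 0.83) and *Sema6a* (0.82). None of these nearest genes was another member.

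**Figure D5:**
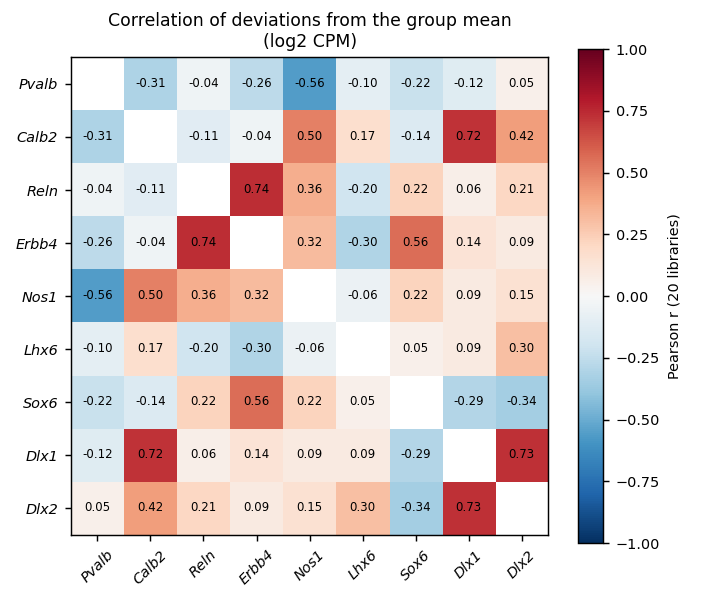
Pearson r between members of their deviations from the group mean (log2 CPM, 20 libraries), with the colour scale from -1 to 1 and the value in each cell. The highest values are *Reln* with *Erbb4* (0.74), *Dlx1* with *Dlx2* (0.73) and *Calb2* with *Dlx1* (0.72), and the lowest is *Pvalb* with *Nos1* (-0.56).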

How the data were processed

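Stranded mRNA libraries of 20 samples were quantified by the authors with kallisto against an Ensembl GRCm38 transcriptome, per the paper. The labels name GRCh38, which the mouse transcript identifiers contradict. The deposited files give estimated counts and TPM per transcript. Of 115270 transcripts, 113580 were matched to GENCODE M21, and 1690 were left out. Estimated counts were summed per gene and rounded. Depth was 12752439 to 19617765 estimated counts. The labels name no batch and do not say that samples are separate mice, so p-values measure the spread between these samples. The columns hold no comparison of the authors.

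Genes kept by edgeR's default filter were compared with edgeR 4.0.16 (TMM, quasi-likelihood test, R 4.3.3), with Benjamini-Hochberg adjustment over all genes tested and a threshold of 0.05. DESeq2 1.42.0 was an alternative. Shares and ratios were compared by exact permutation in Python 3.11.15. Levels and correlations used numpy 2.4.6 and pandas 2.3.3. The steps were tested on simulated data. Groups came from the labels. All 9 members are named, from each list the counts and at most the 3 largest called changes, and for each member the 3 genes of highest correlation, of which 1 is not reported here. The members and lists were chosen with earlier results of these data known. Alternatives were other scaling, no filter, the length offset, a joint fit, a replicate block and each library left out. Protein-coding transcripts alone, leaving out 6 libraries and 2 marker covariates were chosen after seeing the data.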

Additional observations from a re-analysis of the deposited data

Results flagged for a closer look

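Each group's highest and lowest library was compared with its neighbour, and a gap of more than 0.71 of the group's range was taken as large. Over 112 groups of 5 (9 levels and 19 transcript shares in 4 groups), 13 were. Chance gives about 1 in 20 for independent, normally distributed values, which the 10 shares among them are not, since shares pile up at 0 or 100% and those of Pvalb-201 and Pvalb-202 mirror each other. For levels these were *Pvalb* in miR-324-null neocortex 5, at 73.2 TMM CPM against 44.4 to 50.6 in the 4 others, *Calb2* in miR-324-null neocortex 2, at 48.5 against 7.22 to 17.3, and *Dlx1* in the same library, at 55.6 against 33.5 to 38.7. Null neocortex 5 is also the library with the lowest summed hippocampal field markers of its group, and null neocortex 2 the one with the highest choroid plexus markers. The part of either in these levels was not tested.

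Among transcript shares, Pvalb-201 held 81.6% in miR-324-null hippocampus 4 and 99.7% in miR-324-null neocortex 1, with Pvalb-202 at 18.4% and 0.303% there. Calb2-201 held 99.1% in WT hippocampus 2, 99.7% in miR-324-null hippocampus 1 and 96.6% in WT neocortex 4, where the other libraries of these groups were near 100%. Erbb4-201 held 30.7% in miR-324-null neocortex 4, Sox6-215 held 30.7% in miR-324-null hippocampus 4 and Sox6-207 held 20% in WT hippocampus 4.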

How the results depend on the processing

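The count of members called between genotypes stayed at 0 in both tissues and for the interaction under every alternative run, except that 1 was called in the neocortex without miR-324-null neocortex 5 (range 0 to 1). Between tissues it lay between 4 and 6 in WT and between 3 and 6 in null mice under the alternatives that kept the design, and between 5 and 7 and between 4 and 5 with 1 library left out. The counts over all genes moved more. In the hippocampus, where 17 genes were called between genotypes, DESeq2 called 139, the joint fit 83, the replicate block 4, protein-coding transcripts 7 and fits without 1 library 10 to 31. In the neocortex (47 genes) DESeq2 called 237, the length offset and the replicate block 30 each, protein-coding transcripts 27, the fit without the libraries that stand apart 26, the hippocampal field covariate 30, the striatal covariate 14, and fits without 1 library 27 to 566, the highest without miR-324-null neocortex 5. Of the interaction (3 genes) DESeq2 called 7, the length offset 1, the replicate block 0 and fits without 1 library 1 to 20. In null mice 2470 genes differed between tissues without the libraries that stand apart, against 4125. The exact tests of ratios and shares can hardly pass at 5 against 5 libraries, so that 0 passed says nothing of stability.

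Some signs turned, also of differences that were not small, such as those of *Nos1* and *Dlx2* between genotypes in the neocortex (0.55 and 0.36). With hippocampal field markers as a covariate the neocortical genotype differences became 0.16 for *Pvalb*, -0.046 for *Reln*, -0.025 for *Erbb4*, -0.064 for *Nos1*, -0.011 for *Dlx1* and -0.012 for *Dlx2*. This covariate nearly follows genotype in the neocortex, so that fit cannot tell them apart. With the striatal covariate they were -0.023 for *Lhx6* and 0.013 for *Sox6*, and the length offset gave 0.09 for *Sox6*. Without the libraries that stand apart they were -0.011 for *Erbb4* and -0.091 for *Dlx1*, and the null tissue difference of *Dlx1* was 0.035. Protein-coding transcripts gave -0.17 for *Dlx1* between genotypes in the hippocampus and -0.094 for *Reln* between WT tissues, where the replicate block gave -0.021, and a null tissue difference of -0.96 for *Dlx1* (edgeR adjusted p = 0.0410). The length offset gave an interaction of -0.078 for *Dlx1*. With 1 library left out, the hippocampal genotype difference ranged from -0.39 to 0.014 for *Pvalb*, from -0.16 to 0.13 for *Reln* and from -0.023 to 0.11 for *Slc32a1*, the neocortical one from -0.05 to 0.16 for *Dlx1*, the WT tissue difference from -0.17 to 0.10 for *Reln*, and the interaction from -0.24 to 0.16 for *Pvalb*, -0.85 to 0.15 for *Calb2*, -0.042 to 0.11 for *Erbb4*, -0.042 to 0.16 for *Lhx6* and -0.084 to 0.044 for *Gad1*. The cause was not tested. The replicate numbers share no stated source. The deviations of same-numbered samples of the 2 tissues correlated between -0.102 and 0.101 in WT mice and between 0.0165 and 0.177 in null mice, where all 5 were above 0, and 2 of 5 and 3 of 5 samples correlated best with their own number. As not every pair exceeded 0.1, the numbers were not taken as pairs in the main fits. Those fits treat the samples of the 2 tissues as independent, and these correlations do not settle whether same-numbered samples share a mouse. With the replicate block *Calb2* (1.10, adjusted p = 0.0355) and *Dlx2* (-0.45, adjusted p = 0.0441) passed between null tissues. *Dlx2* had the fewest counts, 34 to 139 a library, which limits its precision.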
